A study of Caenorhabditis elegans with 2 samples.

Results

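Operon-like same-strand gene clusters of Caenorhabditis elegans were described by where the chromatin protein ATHP-1 was found in them. A cluster was a run of at least 2 adjacent protein-coding genes on the same strand, in which each next gene started 0 to 300 bp after the end of the gene before it, in the Ensembl WBcel235 annotation (release 115). This rule used gene positions only and no binding value. It found 1908 clusters, which held 4308 of 19973 protein-coding genes. These were 1908 first genes and 2400 later genes, each later gene with 1 junction before it. The other 15665 genes were in no cluster. Of the clusters, 1550 had 2 genes, 259 had 3, 73 had 4, 18 had 5, 7 had 6 and 1 had 7. The gap at a junction had a median of 115 bp (quartiles 94 and 198 bp), and 54.8% of the gaps were 51 to 150 bp long.

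The chromatin came from whole animals of strain OP685, whose genotype is unc-119(tm4063) III with the transgene wgIs685. The transgene encodes ATHP-1 with a GFP-FLAG tag at its C-terminal end, and an antibody to GFP was used for the precipitation. The animals were young adults, male and female pooled, taken 64 h after synchronization as starved L1 larvae. There were 2 biological replicates of this 1 group and no second condition, so every comparison below is between regions of the same genome. The animals of a replicate were pooled, and the cells in which a region was bound cannot be told apart. The lists hold no expression values, so the tissue could not be checked against marker genes.

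Many C. elegans genes lie in operons, in which 1 promoter ahead of the first gene drives a polycistronic precursor RNA. The precursor is cut and trans-spliced: the first gene usually receives the SL1 leader, and later genes usually receive SL2 leaders at a splice site just after a short intercistronic gap. For a trans-spliced gene the annotated 5′ end is therefore often the splice site and not the place where transcription starts. Genes for general cell functions such as translation, RNA processing and mitochondria are common in operons. ATHP-1 is named for its AT-hook, a motif that contacts the minor groove of AT-rich DNA, and its PHD finger, a motif that often reads histone tails. The rule used here finds operon-like runs by spacing alone, and splice leader data were not used here.

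The strongest summits of the clusters are shown first, since they mark the kinds of place the results turn on. A summit is the base at which the authors' caller placed the top of a bound region. Each sequence is from the RefSeq genome of build WBcel235 (ce11), written 5′ to 3′ on the strand of the genes, with the 11 bases centred on the summit in capitals. The first 4 lie ahead of first genes, in the order of their summit signal. They are chrIII:10759177-10759306 on the plus strand for tasp-1, chrIII:13643670-13643820 on the minus strand for drr-2, chrIV:4749995-4750145 on the minus strand for rpl-20 and chrIV:1659142-1659292 on the plus strand for rps-28. None of the 4 holds bases of an annotated exon.
tasp-1: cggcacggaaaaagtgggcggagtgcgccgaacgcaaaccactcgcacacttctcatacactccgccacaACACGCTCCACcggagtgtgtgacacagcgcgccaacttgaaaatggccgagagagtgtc
drr-2: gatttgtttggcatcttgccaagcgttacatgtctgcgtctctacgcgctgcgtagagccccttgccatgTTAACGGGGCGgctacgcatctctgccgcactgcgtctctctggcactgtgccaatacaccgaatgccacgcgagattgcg
rpl-20: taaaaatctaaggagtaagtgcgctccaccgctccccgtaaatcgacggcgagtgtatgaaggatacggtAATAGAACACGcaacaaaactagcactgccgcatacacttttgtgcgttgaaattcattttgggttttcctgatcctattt
rps-28: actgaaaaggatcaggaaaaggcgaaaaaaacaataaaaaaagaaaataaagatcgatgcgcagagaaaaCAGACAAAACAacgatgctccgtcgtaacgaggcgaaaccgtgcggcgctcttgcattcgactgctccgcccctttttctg
Their GC content was 59.2%, 57.6%, 43.7% and 45.0% in that order.

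The next 3 are whole gaps at 3 of the 6 strongest bound junctions, each running from the end of the gene before it to the 5′ end of the later gene named. They are chrV:18967830-18967904 on the minus strand for Y39B6A.43, chrIV:1711128-1711261 on the plus strand for rpi-2 and chrIV:8377631-8377704 on the minus strand for D2096.7. The gap before D2096.7 has no capitals, because its summit lay just inside the 3′ end of nap-1, the gene before it.
Y39B6A.43: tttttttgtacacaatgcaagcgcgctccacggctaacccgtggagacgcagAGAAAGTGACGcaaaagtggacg
rpi-2: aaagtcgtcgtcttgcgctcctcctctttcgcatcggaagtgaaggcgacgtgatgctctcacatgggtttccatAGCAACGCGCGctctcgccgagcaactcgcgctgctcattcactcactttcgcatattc
D2096.7: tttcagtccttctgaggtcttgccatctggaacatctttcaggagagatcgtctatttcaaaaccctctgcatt
The GC content of the gaps was 52.0%, 55.2% and 43.2% in that order. None of the 3 gaps ended in TTTCAG.

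First genes of clusters carried ATHP-1 more often than genes in no cluster, and so did later genes, but less far above them. A gene was called bound when a summit of the authors' reproducible list lay in its window, 500 bp upstream to 200 bp downstream of the 5′ end. This list holds 1649 regions, made from both replicates with IDR, a method that compares the ranks of regions between replicates. It gave the same counts of bound windows as the 1649 strongest regions of the authors' pooled list, with the same lowest signal of 106. A region in it need not be among the 1649 strongest of each replicate alone. Of first genes, 170 of 1908 were bound, or 8.91% (95% exact binomial interval 7.67 to 10.3%). Of later genes, 142 of 2400 were bound, or 5.92% (5.01 to 6.94%). Of genes in no cluster, 572 of 15665 were bound, or 3.65% (3.36 to 3.96%). Over all 19973 protein-coding genes 884 were bound, which is a background of 4.43%. The 3 intervals did not overlap. They cover counting over regions only, and neighbouring windows can share a summit, so regions are not independent.

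The excess of first genes over genes in no cluster was about the same in each replicate, and the order of first and later genes was less steady. In the 1649 strongest regions of replicate 1 alone, 7.34% of first genes (6.21 to 8.60%), 6.88% of later genes (5.89 to 7.96%) and 2.99% of genes in no cluster were bound, with a background of 3.87%. In the 1649 strongest of replicate 2, 9.80% of first genes (8.50 to 11.2%), 4.96% of later genes (4.12 to 5.90%) and 3.996% of genes in no cluster were bound, with a background of 4.67%. The ratio of first genes to genes in no cluster was 2.44 in the reproducible list, 2.46 in replicate 1 and 2.45 in replicate 2. The ratio of later genes to genes in no cluster was 1.62, 2.30 and 1.24 in the same lists. First genes exceeded later genes by 2.99 percentage points in the reproducible list, by 0.463 in replicate 1 and by 4.84 in replicate 2. The SD of this difference over the replicates was 3.10 points, larger than the difference itself.

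**Figure D1:**
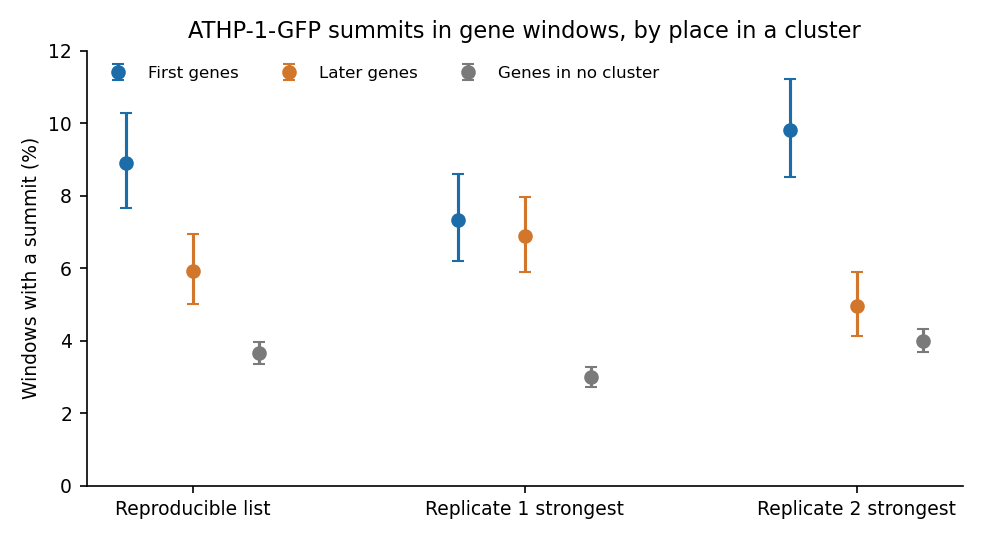
Share of windows (%) with an ATHP-1-GFP summit for first genes, later genes and genes in no cluster, in the reproducible list and in the equally long strongest lists of each replicate. Points are shares and bars are 95% exact binomial intervals over regions; first genes lie at 8.91, 7.34 and 9.80%, and later genes at 5.92, 6.88 and 4.96%.

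The order of first and later genes also turned on the window and on the strength of the summits. With a window of 200 bp on each side of the 5′ end the difference became -1.51 points, because 4.04% of first genes and 5.54% of later genes were then bound. With only the nearest 5′ end counted for a summit, 6.39% of first genes and 5.83% of later genes were bound, a difference of 0.561 points. In that setting 2.87% of genes in no cluster were bound, so both classes of clustered genes stayed above it. In the authors' pooled list of 30000 regions, 41.1% of first genes, 43.7% of later genes and 23.4% of genes in no cluster had a summit, against a background of 27.5%.

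First genes stood farthest above later genes among the strongest regions, and their shares were nearly equal among the weakest. The reproducible list was split by signal into 4 classes of nearly equal size. In the strongest class (signal 184 to 1172) there was a summit in 3.25% of first-gene windows (62), 0.958% of later-gene windows (23) and 1.19% of windows of genes in no cluster (187). In the next 2 classes the shares were 2.10%, 1.58% and 0.862%, and then 1.94%, 1.71% and 0.881%. In the weakest class (signal 106 to 120) they were 1.78% (34), 1.79% (43) and 0.798% (125). Signal is the value that the authors' caller gave each region relative to a control. It has no stated unit and is used only to rank regions within a list. Below the reproducible list, the pooled regions ranked 1650 to 5000 lay in 9.17% of first-gene windows, 11.4% of later-gene windows and 4.34% of windows in no cluster. For ranks 20001 to 30000 the shares were 7.49%, 9.67% and 6.88%. The median signal of bound windows was 156 at first genes (quartiles 126 and 230, highest 1172), 134 at later genes (119 and 172, highest 528) and 152 in no cluster (123 and 203, highest 909).

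**Figure D2:**
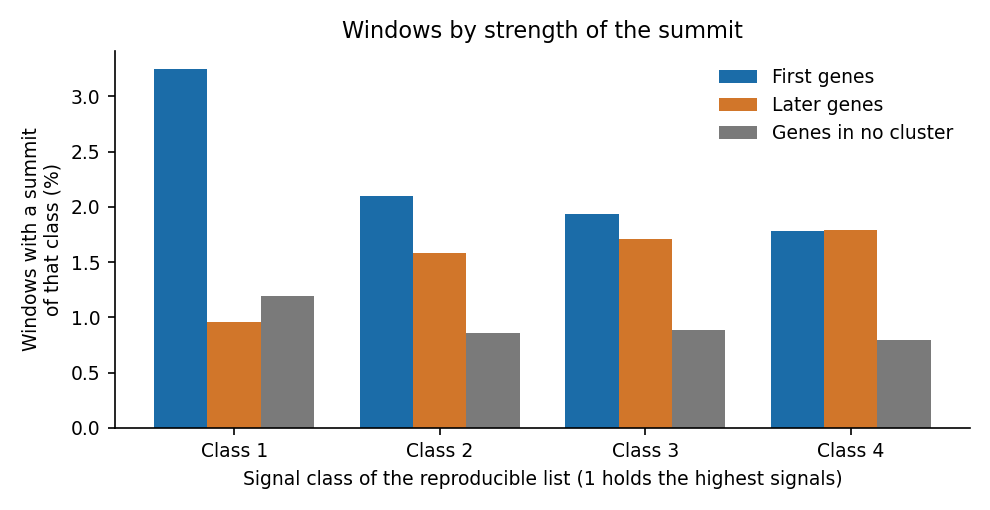
Share of windows (%) with a summit for first genes, later genes and genes in no cluster, in each of 4 classes of nearly equal size of the reproducible list by signal, class 1 holding the strongest. Bars are shares; first genes and later genes lie at 3.25% and 0.958% in class 1 and at 1.78% and 1.79% in class 4.

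Bound windows of the classes also differed in which replicate supported them. Of the 170 bound first windows, 113 also had a summit in the strongest list of both replicates, 11 in that of replicate 1 only, 42 in that of replicate 2 only and 4 in neither. Of the 142 bound later windows, 79 had one in both, 37 in replicate 1 only, 22 in replicate 2 only and 4 in neither. For the 572 bound genes in no cluster the counts were 351, 51, 156 and 14. First genes and genes in no cluster thus leaned to replicate 2, while later genes leaned to replicate 1. The part of read depth in this was not tested and read depths are unknown here.

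Summits took a different place at first and at later genes. At first genes the median summit was 222 bp upstream of the 5′ end (quartiles 319 and 145 bp upstream), close to the 206 bp of genes in no cluster (311 and 119 bp upstream). At later genes the median was 14 bp upstream, with quartiles 101 bp upstream and 46 bp downstream. Replicate 1 gave medians of 216 bp upstream at first genes and 14 bp at later genes, and replicate 2 gave 231 and 34.5 bp. Of the summits in first windows, 14.4% (25 of 174) lay within 100 bp of the 5′ end. Of the summits in later windows 66.9% did (97 of 145), and of those in windows of no cluster 19.2% (113 of 588). In replicate 1 these shares were 18.4%, 66.7% and 20.2%, and in replicate 2 they were 15.7%, 61.5% and 18.2%. The replicates differed among themselves by far less than first and later genes differed.

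The classes differed on both sides of the 5′ end. The first 100 bp inside the gene held 3 summits at first genes, which is 1.57 per 1000 genes. It held 56 at later genes, or 23.3 per 1000, and 30 at genes in no cluster, or 1.92 per 1000. From 200 to 300 bp upstream there were 25.7 per 1000 at first genes and 1.67 per 1000 at later genes. From 100 to 200 bp upstream the counts per 1000 genes were 25.7 at first genes, 12.1 at later genes and 9.64 in no cluster. Counted by gene, 25 of 1908 first genes (1.31%) had a summit within 100 bp of the 5′ end, against 97 of 2400 later genes (4.04%) and 113 of 15665 genes in no cluster (0.721%). The 3′ ends ahead of junctions had a summit within 100 bp in 2.29% of 2400 cases. The 3′ ends of last genes had one in 1.57% of 1908, and those of genes in no cluster in 1.24% of 15665. Ahead of junctions such a stretch reaches into the gap, and into the later gene where the gap is shorter than 100 bp. It can thus share summits with the later gene's 5′ end, and only 10 of 129 junction summits lay inside the gene before.

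**Figure D3:**
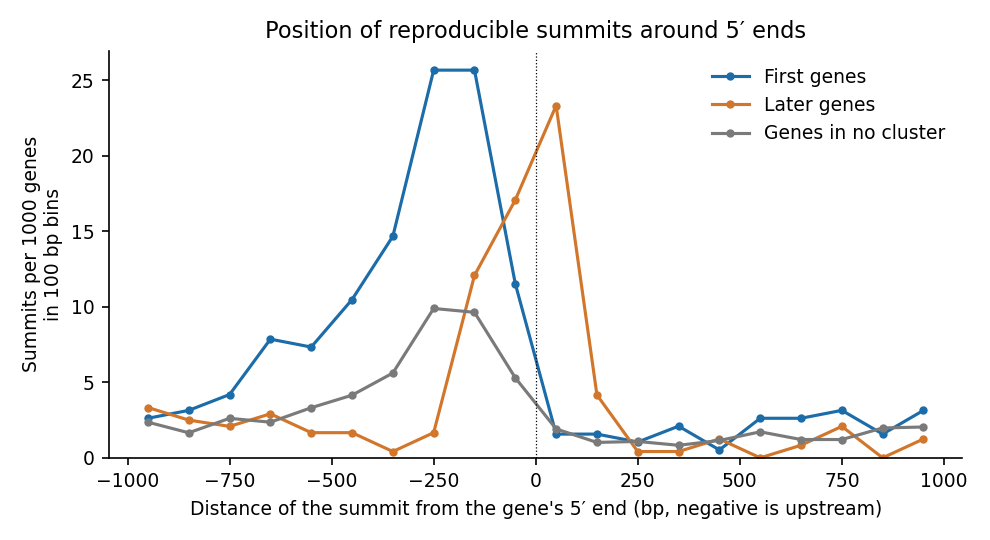
Summits of the reproducible list per 1000 genes in 100 bp bins by distance (bp) from the 5′ end, with upstream negative, for first genes, later genes and genes in no cluster. First genes peak between 300 and 100 bp upstream, and later genes peak in the first 100 bp inside the gene at 23.3 per 1000.

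At junctions, taken as the gap with 100 bp on each side, 128 of 2400 had a reproducible summit, or 5.33% (4.47 to 6.31%). The share was 5.83% in replicate 1 and 4.46% in replicate 2. In the pooled list 30.7% of junctions had one. A junction is shorter than a window, with a mean of 341 bp. Per length, junctions held 0.158 summits per kb and first windows 0.130 per kb, counting a summit once for each window it lay in. The ratio of first windows to junctions was 0.825 in the reproducible list, 0.616 in replicate 1 and 1.07 in replicate 2, so the order per kb was not the same in both replicates. No summit lay in the first window and a later window of the same cluster.

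The place of a junction summit went with the length of the gap. Of 129 junction summits, 10 lay in the last 100 bp of the gene before, 63 in the gap and 56 in the first 100 bp of the later gene. For gaps of 0 to 50 bp the counts were 2, 1 and 8, for gaps of 51 to 150 bp they were 5, 24 and 43, and for gaps of 151 to 300 bp they were 3, 38 and 5. Longer gaps offer more bases for a summit, so the density per kb stands beside these counts. In the gap itself it was 0.179, 0.178 and 0.193 summits per kb for the 3 gap classes, from short to long. In the first 100 bp of the later gene it was 0.388, 0.327 and 0.0569 per kb. The density in the gap was thus nearly the same for gaps of 51 to 150 bp and of 151 to 300 bp. Its value for the shortest gaps rests on 1 summit. The density inside the later gene was lowest after the longest gaps. In gaps of 201 bp or longer, 16 of 34 summits were nearer the later gene's 5′ end and 18 nearer the 3′ end before it.

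Neighbouring genes in other orientations give a frame for the junctions. Same-strand junctions had a summit in 5.33% of 2400 cases. Neighbours also 0 to 300 bp apart that met tail to tail had one in 46 of 845, or 5.44% (4.01 to 7.19%). Neighbours that stood head to head had one in 48 of 503, or 9.54% (7.12 to 12.5%). In replicate 1 the shares were 5.83%, 6.27% and 7.36%, and in replicate 2 they were 4.46%, 4.50% and 10.7%. Mean gaps were not equal, at 141 bp for same-strand, 121 bp for tail-to-tail and 193 bp for head-to-head neighbours. Per kb there were 0.158, 0.173 and 0.243 summits in the reproducible list, 0.171, 0.195 and 0.187 in replicate 1, and 0.133, 0.140 and 0.278 in replicate 2. Head-to-head neighbours were thus above tail-to-tail ones per kb in replicate 2 and not in replicate 1. The shares of same-strand and tail-to-tail neighbours differed by less than either replicate did from the other.

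The share of bound first windows varied with gap length more than that of junctions did. Where gene 2 followed after 0 to 50 bp, 9.15% of 164 first windows were bound. The share was 11.0% of 463 for 51 to 100 bp, 13.0% of 555 for 101 to 150 bp, 5.67% of 247 for 151 to 200 bp, 3.78% of 238 for 201 to 250 bp and 3.73% of 241 for 251 to 300 bp. Junction shares for the same gap lengths were 5.34%, 4.52%, 6.12%, 4.01%, 6.44% and 5.28%. Just outside the 300 bp limit, junctions with gaps of 301 to 350 bp had a summit in 13 of 271, or 4.80%, beside 15 of 284 just inside it.

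**Figure D4:**
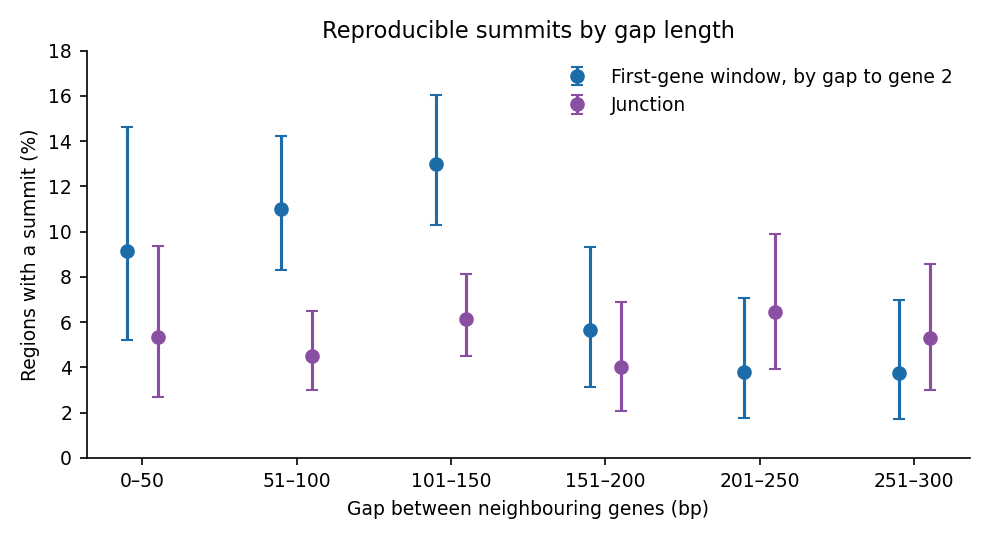
Share (%) of first-gene windows, grouped by the gap to gene 2, and of junctions, grouped by their own gap, with a reproducible summit, for 6 classes of gap length (bp). Points are shares and bars are 95% exact binomial intervals over regions; first windows reach 13.0% at 101 to 150 bp and 3.73% at 251 to 300 bp, while junctions stay between 4.01 and 6.44%.

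Clusters in which every gap was 51 to 150 bp, the spacing usual for operons, stood apart in their first genes. Of their 928 first genes 11.96% were bound (9.94 to 14.2%), against 4.43% of 654 first genes in clusters with every gap at 151 to 300 bp (2.99 to 6.31%). Replicate 1 gave 9.91% and 3.67%, and replicate 2 gave 13.6% and 4.13%. In the reproducible list the share was higher in the tighter clusters on each of the 6 chromosomes. It went from 10.6% beside 9.89% on chromosome I to 17.0% beside 2.74% on chromosome II. Later genes were bound in 6.79% of 1075 cases in the tighter clusters and 4.57% of 700 in the wider ones. In replicate 1 these shares were 7.63% and 5.57%, and in replicate 2 they were 5.02% and 4.43%. The first genes of the wider clusters were thus close to the background of 4.43%.

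Genes 1 and 2 of a cluster were bound more often than genes 3 and later as a whole. Genes 3 and later together were not above the background of 4.43% or the 3.65% of genes in no cluster. Gene 1 was bound in 8.91% of clusters, gene 2 in 127 of 1908 (6.66%, 5.58 to 7.87%), gene 3 in 12 of 358 (3.35%), gene 4 in 1 of 99, gene 5 in 2 of 26 (7.69%), and genes 3 and later together in 15 of 492 (3.05%, 1.72 to 4.98%). In clusters of 3 or more genes, 41 of 358 first genes (11.5%), 32 second genes (8.94%) and 9 last genes (2.51%) were bound. In pairs, 129 of 1550 first genes (8.32%) and 95 second genes (6.13%) were bound. Counted by cluster, 139 had only the first gene bound, 106 only a later gene, 31 both and 1632 neither. A later gene was bound in 31 of the 170 clusters with a bound first gene, or 18.2% (12.7 to 24.9%), and in 106 of 1738 clusters without one, or 6.10% (5.02 to 7.33%). In those 31 clusters the first gene had the higher signal in 16 and a later gene in 15.

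What lay upstream of a first gene moved with its share. Where the 5′ end of an opposite-strand gene lay within 500 bp, 50 of 307 first genes were bound (16.3%) and 179 of 1535 genes in no cluster (11.7%). Where no protein-coding gene lay within 500 bp, the shares were 7.55% of 1311 first genes (6.18 to 9.12%) and 2.44% of 11934 genes in no cluster (2.17 to 2.73%). First genes were thus also above genes in no cluster without a divergent neighbour. With a same-strand gene within 500 bp the shares were 7.35% and 5.08%. In 81 of the 170 bound first windows every summit also lay in the window of a gene outside the cluster. The same held in 2 of the 142 bound later windows. The gene that such a shared summit belongs to was not tested.

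The X chromosome had fewer clusters and little binding at later genes. Clusters held 12.6% of the genes on X and between 19.4 and 28.2% on each autosome. On the autosomes 9.32% of first genes, 6.36% of later genes and 4.10% of genes in no cluster were bound. On X these were 7 of 160 (4.38%), 1 of 184 (0.543%) and 27 of 2387 (1.13%). In the reproducible list first genes were above later genes on each of the 6 chromosomes, with the closest values on V at 5.47% and 4.36%. The replicates were not compared by chromosome, and over all chromosomes the difference was only 0.463 points in replicate 1.

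Among the 12 strongest first windows, tasp-1 and drr-2 stood first and second. The tasp-1 summit, 55 bp upstream, was the highest of the whole reproducible list with a signal of 1172. Its signal was 476 in replicate 1 and 697 in replicate 2, rank 1 in each. tasp-1 encodes a taspase-type protease, and dpy-28, which follows it after 109 bp, encodes a condensin subunit that also acts in dosage compensation of the X chromosome. The drr-2 summit, 175 bp upstream, had a signal of 909, with 364 in replicate 1 and 550 in replicate 2, rank 2 in each. drr-2 encodes a protein like the translation factor eIF4H, and it leads a cluster with T12D8.10 and the acyl-CoA-binding gene acbp-5. Its summit also lay in the window of set-16, a histone methyltransferase gene.

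Ribosomal protein genes made up 4 of the 12 highest first windows. rpl-20 had a signal of 656 (271 and 386 in replicates 1 and 2) at 292 bp upstream and leads cyc-2.1, a cytochrome c gene, and tctn-1, a gene of the ciliary transition zone. rps-28 had 525 (187 and 329) at 474 bp upstream, rpl-15 had 524 (215 and 316) at 373 bp upstream and rpl-12 had 357 (150 and 206) at 45 bp upstream. The rpl-12 summit also lay in the window of lin-54, a DREAM complex gene. Likewise the rpl-20 summit also lay in the window of Y17G9B.5 and the rpl-15 summit in that of K11H12.8. The ranks of these 4 in the replicates ran from 5 to 81, all well inside the 1649 strongest regions.

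The other first windows in the top 12 were those of sec-61.G, pro-1, cct-8, Y55F3AR.2, wip-1 and tbb-1. sec-61.G, a subunit of the translocon of the endoplasmic reticulum, had a signal of 492 at 222 bp upstream. pro-1, a WD-repeat gene needed for ribosomal RNA processing and germline development, had 472 at 174 bp upstream. cct-8, a chaperonin subunit gene leading the COP9 signalosome gene csn-4, and Y55F3AR.2, which leads the cytochrome oxidase assembly gene cox-18, share 1 summit of 460 between their divergent 5′ ends. wip-1, related to WASP-interacting proteins and followed by the Mediator gene mdt-11, had 377 at 324 bp upstream. tbb-1, a beta-tubulin gene, had 373 at 243 bp upstream, a summit that also lay in the window of rib-2. The gap to gene 2 was between 58 and 172 bp in all 12 clusters.

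Of the 128 bound junctions, 29 were in a cluster whose first window was also bound, and the 8 strongest held a wide range of genes. The junction before Y39B6A.43 had a signal of 528 (238 in replicate 1 and 286 in replicate 2, ranks 12 and 14) at 18 bp upstream. The one before rpi-2 had 359 (200 and 161, ranks 28 and 116) at 54 bp upstream, after K08D12.3. These 2 summits are the capitals in the first and second gap sequences. Both lay in gaps richer in GC than the median of 33.2% over the 123 bound gaps of 20 bp or more. The junction before bag-1, a cochaperone gene of HSP70, had 325 in the 297 bp gap after the katanin gene mei-2, whose own first window also held a summit of 107.

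The ddp-1 junction, between the bHLH gene hlh-33 and this mitochondrial import gene, had a signal of 289. egl-30, the G protein alpha subunit gene of the Gq class, had 272 at 75 bp upstream, after rpl-27. This summit also lay in the window of C53H9.4. D2096.7 had 266 just inside the nucleosome assembly gene nap-1, with ranks of 44 in replicate 1 and 538 in replicate 2. prmt-5, an arginine methyltransferase gene, had 259 at 39 bp upstream, inside atp-2, the ATP synthase beta subunit gene, since its gap is 18 bp. imp-3, of an intramembrane protease family, had 233 at 156 bp upstream, after the SR splicing factor gene rsp-6. Each of these 8 summits was more than 200 bp from every annotated tRNA, snoRNA and snRNA gene. Over the class, 4 of 170 bound first genes, 0 of 142 bound later genes and 43 of 572 bound genes in no cluster had only summits near such genes.

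**Figure D5:**
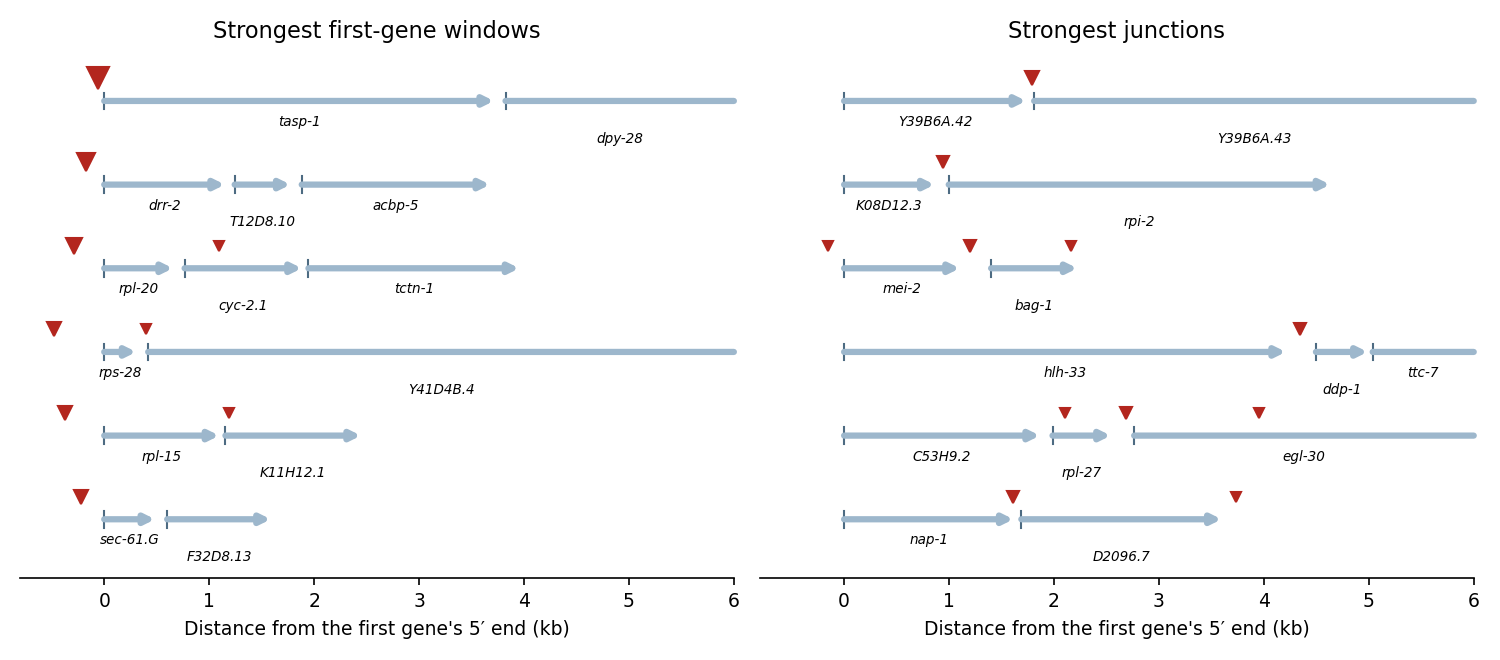
Maps to scale of the 6 clusters with the strongest first-gene summit and the 6 with the strongest junction summit, by distance (kb) from the first gene's 5′ end, with genes as arrows. Triangles are reproducible summits, larger with higher signal, from 1172 at tasp-1 down; maps end at 6 kb and longer genes run past the edge.

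Gene groups were taken by gene symbol, so genes of the same function under other symbols were not counted in them. By gene group, cytosolic ribosomal protein genes were bound most often. Of these, 12 of 28 first genes, 3 of 5 later genes and 16 of 48 in no cluster were bound, beside the background of 4.43%. All 12 first-gene summits lay upstream, from 45 bp at rpl-12 to 474 bp at rps-28. rps-10 and rpl-24.1, which lead different clusters, shared 1 summit with a signal of 131, at 395 and 215 bp upstream. The 3 later-gene summits lay inside the gene, at 118 bp for rpl-27 (signal 173), 91 bp for rla-1 (164) and 16 bp for rps-16 (163). The 12 first genes had signals from 107 at rps-30 to 656 at rpl-20, a range that holds those of the 3 later genes.

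In the other groups too, the named later genes had their summits inside the gene and the first genes upstream, with eef-1B.1 as the exception among first genes. Over all later genes 45.5% of the 145 summits (66) lay at or inside the 5′ end, and over all first genes 3.45% of 174 (6). Proteasome genes were bound at 1 of 6 first genes, 3 of 6 later genes and 2 of 21 in no cluster. The first-gene summit of rpn-9 lay 246 bp upstream, while the later genes rpn-11, pbs-5 and pas-1 had theirs 76, 105 and 99 bp inside the gene. Mitochondrial ribosomal protein genes were bound at 2 of 13 first genes, 3 of 20 later genes and 4 of 37 in no cluster. mrpl-45 and mrps-7 had summits 356 and 185 bp upstream, and the later genes mrps-18.C, mrpl-41 and mrpl-53 had theirs 46, 112 and 157 bp inside. The respiratory chain group held only symbols beginning with nuo, cox, atp, ucr, sdha to sdhd, isp-1 or cyc. Its genes were bound at 0 of 4 first genes, 2 of 13 later genes and 6 of 22 in no cluster. Genes with ndua, ndub, nduf or ndus symbols were left out of it. Among first genes with such symbols some were bound, such as ndua-7 with a signal of 232, and others were not, such as ndus-8. The bound later genes of the group were cox-17, a copper chaperone gene of cytochrome oxidase, 43 bp inside, and the complex I gene nuo-5, 30 bp inside.

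Translation initiation and elongation factor genes were bound at 3 of 14 first genes, 0 of 4 later genes and 4 of 18 in no cluster. The initiation factor subunits eif-3.B and eif-3.C had signals of 240 and 201 at 203 and 237 bp upstream, and the elongation factor gene eef-1B.1 had 107 at 17 bp inside. The group of splicing and RNA-binding protein genes held only symbols beginning with sf3, prp, snr, rnp, rsp or uaf. Its genes were bound at 1 of 12, 1 of 7 and 6 of 26. The bound clustered genes of the group were snr-4, a core snRNP gene, 376 bp upstream, and the later gene snrp-200, a spliceosomal helicase gene, 75 bp inside. It leaves out first genes such as fust-1, which was bound with a signal of 288, and hrpa-1, which was not bound. Genes of RNA polymerases, replication protein A and TBP-associated factors were bound at 2 of 16, 1 of 9 and 1 of 14, with rpb-11 at 114 bp upstream, taf-12 at 265 bp upstream and the later gene rpc-2 at 85 bp inside. Vacuolar proton pump genes were bound at 0 of 4 clustered genes and 5 of 16 in no cluster, and nuclear pore genes at 0 of 5 and 5 of 21. At the background of 4.43%, counts of 0 among 4 or 5 genes say nothing about these groups in clusters.

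Of 23 genes of textbook operons looked up by name, 22 matched the annotation and 18 were in a run by the rule. The fib-1 and rps-16 operon, which pairs fibrillarin of the nucleolus with a ribosomal protein, was bound at both genes. fib-1 had a signal of 271 at 72 bp upstream, and rps-16 had 163 at 16 bp inside the gene. The 2 bound genes are 9.09% of 22 (1.12 to 29.2%), beside 7.24% of all 4308 clustered genes and the background of 4.43%. The other 20 matched genes had no reproducible summit, and they include gpd-2 and gpd-3 (glyceraldehyde phosphate dehydrogenases), ced-9 (an apoptosis inhibitor), des-2 and deg-3 (acetylcholine receptor subunits), and mes-3 and dom-3. Of these, lir-2 had the best rank in the pooled list at 2608, with its summit 116 bp upstream. The symbol without a match was cyt-1 of the ced-9 operon. In its run ced-9 follows mev-1, a symbol that was not looked up. Whether mev-1 is the gene listed as cyt-1 was not checked, so the counts of textbook genes are by symbol only. The first window of mev-1 was bound, with a signal of 109, so the ced-9 run was not free of binding. Genes mai-1, lin-15B, lin-15A and dpy-30 were in no run.

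In the longest runs, 3 of 49 genes were bound (6.12%, 1.28 to 16.9%), beside the background of 4.43%. Of the 8 clusters of 6 or more genes, 2 had a bound gene, beside 14.5% of all clusters. The other 6 had none, among them the 7 genes from rpb-6 to crn-5. In the cluster led by ztf-7, a zinc finger gene, ztf-7 and F46B6.6 were bound with signals of 157 each. In the cluster led by egli-1 only its gene 5, scp-1, was bound. Each of the 8 clusters had a summit of the pooled list in the windows of 2 to 5 of its genes.

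Median base composition around summits differed between first windows and junctions, with overlapping quartiles. In the 101 bp around the summit the median GC content was 47.5% for first windows (quartiles 42.6 and 53.5%). It was 40.6% for junctions (34.7 and 48.5%) and 46.5% for windows of genes in no cluster, with 45.5% over all 1649 summits. Over the whole window it was 36.8% in bound and 34.7% in other first windows, and 36.9% and 34.7% in bound and other later windows. Gaps of at least 20 bp had 33.2% in 123 bound and 30.6% in 2207 other gaps. The part of base composition in the binding was not tested.

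The word TTTCAG, the end of the C. elegans splice acceptor consensus, was looked for on the gene's strand in the last 10 bases before the 5′ end. It was found at 20.1% of first genes, 14.6% of later genes and 12.3% of genes in no cluster, and at 13.3% of all 19973. Among later genes it was found at 6.31% after gaps of 0 to 50 bp, 18.7% after 51 to 150 bp and 10.5% after 151 to 300 bp. Bound genes had it more often than others in every class, at 30.6% and 19.1% of first genes, 24.6% and 14.0% of later genes, and 25.5% and 11.7% of genes in no cluster. Junctions with the word had a summit in 29 of 351 cases (8.26%, 5.60 to 11.7%), and those without it in 99 of 2049 (4.83%, 3.94 to 5.85%). A match is a description of these letters and does not show that the site is used.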

How the data were processed

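Anti-GFP ChIP-seq regions of ATHP-1-GFP young adults were used: 1 list per biological replicate, 1 pooled list and the reproducible list, all on ce11. Per the deposited readme text, the authors called regions on each replicate and on both together against a control, and made the reproducible list with IDR. For caller, aligner, IDR threshold and depth, the entry is: not given in the sources used here. Depth is thus unknown and no floor is given. The deposited score of each region (its signal value) was used to rank regions within a list. For each region the deposited −log10 q-value was read but not used, since many regions tie, and the summit offset gave each summit. Region ends stayed within the chromosome lengths of the WBcel235 reference.

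Clusters, windows and junctions were built with Python 3.11.15 and numpy 2.4.6 and intervals with scipy 1.17.1 (exact Clopper-Pearson, 95%). Scripts were tested on simulated data. With 1 group and 2 replicates, no p-value was computed. Intervals cover counting only.

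The members, gene groups and settings were chosen with earlier results of these data known. Named were the 12 strongest first windows, the 8 strongest junctions outside the first window and clusters of 6 or more genes. Textbook operon genes and the 3 strongest bound members of each gene group were also named. The other listed bound members and the mei-2 summit were named after their values were seen. So were mev-1, ndua-7, ndus-8, fust-1 and hrpa-1. Lists on the older build were not used. The sequence of 1 further junction is not reported here.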

Additional observations from a re-analysis of the deposited data

How the results depend on the processing

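Of 93 alternative values for 8 results, 67 stayed within the spread between replicates, 25 moved by more and 1 reversed. The values from each replicate alone set this spread and are also counted among the 93, so the tally is partly fixed by its own measure. For the first minus later difference of 2.99 points the spread was 3.10, so even 0.463 points counted as within it. The ratio of summits per kb in first windows to that at junctions, 0.825, moved by less than the replicate spread but passed 1 without replicate 1 (1.07) and with the stronger 50% of the reproducible list (1.09). The reversed one was the first-gene minus later-gene share, -1.51 points with a window of 200 bp on each side, by construction without the summits farther upstream. The first-gene share was 5.35% with the stronger 50% of the reproducible list, 17.9% with 5000 pooled regions, 4.04% with the 200 bp window, 11.5% with 1000 bp upstream to 500 bp downstream, 11.6% with gaps of 0 to 150 bp and 6.39% with nearest 5′ ends only. The later-gene share was 2.54% with the stronger 50% and 16.9% with 5000 pooled regions. The junction share was 2.38% and 13.0% under the same lists, and 2.62% with the gap alone. The share in no cluster was 2.04% and 7.88% under these lists, 1.77% with the 200 bp window, 4.95% with the widest window and 2.87% with nearest 5′ ends only. The median first-window signal was 208 with the stronger 50%, 105 with 5000 pooled regions and 147 with the 200 bp window; signals have another scale in each list. The median position was -201 bp with 5000 pooled regions, -204 bp with gaps up to 150 bp, -236.5 bp with gaps up to 500 bp and -196.5 bp with nearest 5′ ends only. From 1 replicate alone, the shares ranged from 7.34 to 9.80% for first genes, 4.96 to 6.88% for later genes, 4.46 to 5.83% for junctions and 2.99 to 3.996% in no cluster. The first minus later difference ranged from 0.463 to 4.84 points, the median signal from 79.2 to 86.4, the median position from -231 to -216 bp and the density ratio from 0.616 to 1.07. Why these values moved was not tested further. No paired analysis was possible because there is 1 group of samples and so no second group to pair; region classes were compared within each replicate instead. Read depth, which sets how many weak regions can be seen, is unknown.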
